A study of Mus musculus with 11 samples.

Results

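Peaks of huntingtin (HTT) ChIP-seq in the last 1 Mb of the 19 mouse autosomes were examined, a stretch next to the telomere. For each of chromosomes 1 to 19 the highest peak end over the 7 deposited peak lists was taken as the end of the chromosome, and every peak starting less than 1 Mb below it was a member. This gave 9813 peaks, counted over the 7 lists, of 1298473 in all. They were compared with the 52941 peaks of the 5 Mb before that stretch on the same chromosomes. The members are called terminal peaks here, and the others preceding peaks.

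The series mapped chromatin bound by HTT in the striatum of male mice aged 4 months. The groups were heterozygous Q111/+ knock-in mice, which carry an expanded CAG repeat in Htt, and wild-type (WT) littermates from the same B6 crosses. There were 4 Q111/+ and 3 WT libraries. Formaldehyde-fixed chromatin of both groups was cut by micrococcal nuclease and then sonication, and precipitated with an anti-HTT antibody. An allele knocked into Htt itself is present in every cell of the animal, so no promoter or Cre line restricts it. The labels do not say whether each library came from 1 animal, so p-values measure only the spread between these libraries, which may be technical. Input DNA libraries without antibody (4 in all) were not analysed here. ChIP-seq peaks hold no marker genes, so the labelled tissue could not be checked.

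HTT is a large scaffold protein found in the cytoplasm and the nucleus, where it meets transcription and chromatin factors. An expanded CAG repeat in its gene lengthens its polyglutamine tract and causes Huntington's disease, in which the striatum is the brain region hit hardest. Mouse autosomes have the centromere close to one end, and their coordinates run from there, so the highest coordinates lie at the distal telomere. Subtelomeric DNA is the stretch before the telomere repeats. It is often rich in duplicated and repeated sequence, where reads are harder to place, and can hold both active genes and silenced chromatin.

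A peak is a stretch where the authors' caller found more fragments than in its local background. Each list holds 1 library. The lists held 111287, 88920, 105854 and 110722 peaks in Q111/+ replicates 1 to 4, and 495334, 248983 and 137373 in WT replicates 1 to 3. The lists give no read totals. Depth is therefore unknown, and list length is the only stand-in. List names carry 2 prefixes of unstated meaning, called batches here. Batch 1 holds Q111/+ replicates 1 and 2 and WT replicate 1, and batch 2 holds Q111/+ replicates 3 and 4 and WT replicates 2 and 3. Each chromosome end was set by 1 peak of 1 library. WT replicate 1 set 8 of the 19 ends, Q111/+ replicate 3 set 5, WT replicate 2 set 4 and Q111/+ replicate 4 set 2. At the window's inner edge the 100 kb inside held 97, 68, 68 and 71 peaks in the Q111/+ libraries and 363, 152 and 84 in WT. The 100 kb just outside held 81, 59, 74 and 69 in Q111/+ and 364, 148 and 105 in WT.

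Taken as a whole, the terminal megabase did not hold HTT peaks at a density that differed from the preceding 5 Mb beyond the spread between libraries. Terminal peaks numbered 880, 712, 865 and 829 in Q111/+ replicates 1 to 4 and 3639, 1857 and 1031 in WT replicates 1 to 3. WT replicate 1 alone gave more terminal peaks than the 4 Q111/+ libraries together. Terminal density was 46.3, 37.5, 45.5 and 43.6 peaks per Mb in Q111/+ and 192, 97.7 and 54.3 in WT. Preceding density was 51.8, 39.2, 31.9 and 37.7 in Q111/+ and 255, 84.4 and 57.4 in WT. Terminal over preceding density was thus 0.894, 0.955, 1.43 and 1.16 in Q111/+ and 0.752, 1.16 and 0.945 in WT. The end was the denser stretch in 3 libraries and the sparser in 4. The mean log2 ratio was 0.03 ± 0.303 (SD, n = 7), with an exact two-sided sign-flip p of 0.781 (0.938 after Benjamini-Hochberg adjustment over 12 such tests). Without Q111/+ replicate 3 the mean was -0.05.

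The log2 ratio tended to be lower in batch 1. In batch 1 it was -0.16, -0.07 and -0.41 (mean -0.21 ± 0.179, SD, n = 3), below 0 in each library. In batch 2 it was 0.51, 0.21, 0.21 and -0.08 (mean 0.21 ± 0.242, SD, n = 4), above 0 in 3 of 4. The batches overlapped only in that WT replicate 3 of batch 2 lay below Q111/+ replicate 2 of batch 1. The difference of -0.43 did not pass the exact two-sided permutation test (p = 0.0857, adjusted 0.3 over 7 tests, smallest possible 0.0286). In lists of equal length, made of the 88920 peaks of highest -log10 p in each library, it was -0.47 with an exact permutation p of 0.0286. Measured against the whole autosome before the end in place of the 5 Mb before it, the difference was 0.0026 (exact permutation p = 1). What the batches stand for was not tested.

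**Figure D1:**
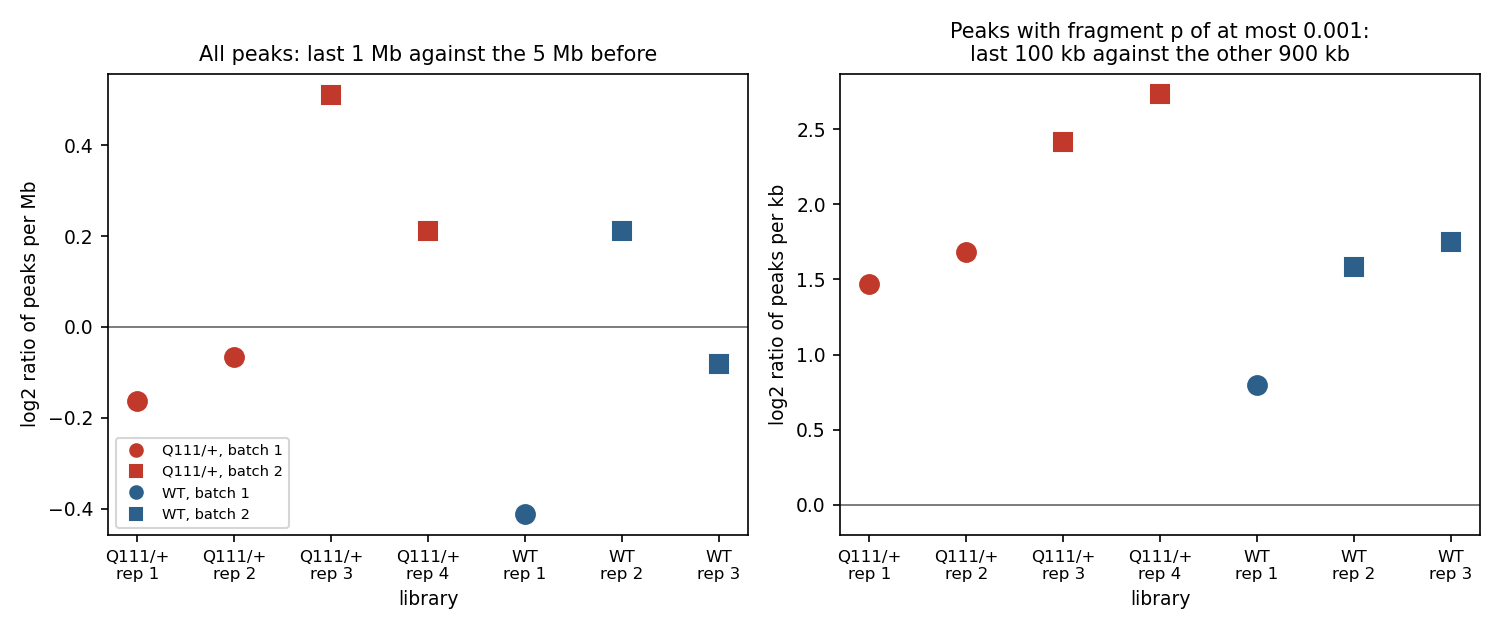
Each point is 1 library, red for Q111/+ and blue for WT, round for batch 1 and square for batch 2. Left, the log2 ratio of peaks per Mb in the last 1 Mb over the 5 Mb before, which runs from -0.41 in WT replicate 1 to 0.51 in Q111/+ replicate 3 and has a mean near 0. Right, the log2 density ratio of the last 100 kb over the other 900 kb for peaks with a fragment p of at most 0.001, which is above 0 in each of the 7 libraries.

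Each Q111/+ library had fewer terminal peaks than each WT library, and this moved with the length of their lists. Terminal peaks numbered 822 ± 76.1 (SD, n = 4) in Q111/+ and 2176 ± 1333 (SD, n = 3) in WT, and the groups did not overlap. The difference of log2 means was -1.22, or 2.33-fold fewer in Q111/+, with an exact two-sided permutation p of 0.0286 over 35 splits, the smallest they can give (adjusted 0.1 over 7 tests). Whole lists were 2.47-fold shorter in Q111/+. Without WT replicate 1 the terminal difference was -0.76 (exact permutation p = 0.0667, the smallest possible there). By batch it was -2.20 in batch 1, with 1 WT library, and -0.71 in batch 2.

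Set against the length of its own list, the terminal megabase held a slightly larger share of peaks in Q111/+ libraries. Terminal peaks were 0.807%, 0.817%, 0.844% and 0.772% of autosomal peaks in Q111/+ and 0.745%, 0.768% and 0.770% in WT. Each Q111/+ share lay above each WT share, but Q111/+ replicate 4 and WT replicate 3 nearly touch. The means were 0.810% ± 0.0299 (SD, n = 4) and 0.761% ± 0.0138 (SD, n = 3). The difference of 0.0489 percentage points did not pass the exact two-sided permutation test (p = 0.0571, adjusted 0.1). Permuted within batches it was 0.0529 points (exact permutation p = 0.0556, the smallest 18 arrangements can give). In lists of equal length terminal peaks numbered 702, 712, 732 and 673 in Q111/+ and 632, 672 and 660 in WT. That sets the Q111/+ mean 0.11 higher on the log2 scale (exact permutation p = 0.0571, adjusted 0.1), so the direction of the genotype difference in numbers turned when list length was matched.

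The density ratio of the end to the 5 Mb before it overlapped between the genotypes. The mean log2 ratio was 0.12 ± 0.303 (SD, n = 4) in Q111/+ and -0.09 ± 0.312 (SD, n = 3) in WT. The difference was 0.22 (exact two-sided permutation p = 0.429, adjusted 0.5). Within batch 1 and within batch 2 it was 0.30, with an exact permutation p of 0.111 over both.

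The median terminal peak was nearly the same in fold, -log10 p and width as the median preceding one. The median peak rested on 4 or 5 fragments in both stretches, where few values are possible. Equal medians therefore cannot show that the peaks were equally strong. The authors' median fold enrichment was 3.34 against 3.24 in Q111/+ replicate 1 and equal in both stretches in the other 6 libraries (exact sign-flip p = 1). It ran from 2.78 to 3.34 over the libraries. Median -log10 p was higher at the end in 2 libraries and equal in 5 (exact sign-flip p = 0.5). Median width was 171 to 211 bp at the end, with a mean difference of -2.43 bp, lower in 5 libraries and equal in 2 (exact sign-flip p = 0.0625, adjusted 0.125).

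The fragments behind each peak were recovered from its fold and -log10 p, and the typical terminal peak rested on very few. The median was 5 fragments at the summit in 5 libraries and 4 in WT replicates 1 and 2, the same as in the preceding 5 Mb in each of the 7. The median local background was slightly lower at the end in 6 libraries and equal in 1 (exact two-sided sign-flip p = 0.0313, adjusted 0.0938). The terminal over preceding ratio of these backgrounds ran from 0.978 to 1. Peaks with at least 8 fragments made up 4.77%, 3.37%, 7.63% and 5.91% of terminal peaks in Q111/+ and 2.91%, 2.53% and 8.73% in WT. Their share was above that of preceding peaks in 6 of 7 libraries, by 1.16 percentage points on average (exact two-sided sign-flip p = 0.0313, adjusted 0.0938). Deposited lists hold any peak past a loose limit on a scaled pileup. A stricter set was therefore made of peaks whose unscaled fragment number had a Poisson p of at most 0.001, called strong peaks here. Between 38 and 222 terminal peaks a library were strong: 68, 38, 51 and 40 in Q111/+ and 222, 84 and 136 in WT.

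In each library, strong terminal peaks overlapped those of another library more often than strong preceding peaks did, though the adjusted p missed the threshold. The share overlapping a strong peak of another library was 19.1%, 28.9%, 31.4% and 40.0% in Q111/+ and 13.1%, 31.0% and 23.5% in WT. Among preceding peaks it was 16.7%, 13.7%, 21.7% and 23.1% in Q111/+ and 6.94%, 23.8% and 16.2% in WT. The end was higher in 7 of 7 libraries, by 9.25 percentage points on average (exact two-sided sign-flip p = 0.0156, the smallest possible, adjusted 0.0938). The last 100 kb of chromosome 2 gave 4 to 9 of a library's strong terminal peaks, and that of chromosome 19 gave 2 to 7. The difference is not given without them, so it may rest on few places. Over all peaks, in lists of equal length, the difference was 1.79 points and higher in 6 of 7 (exact sign-flip p = 0.0625, adjusted 0.125). In the full lists it was -0.40 points (exact sign-flip p = 0.578). In lists of equal length the mean share was 20.9% for terminal peaks, 19.1% for preceding peaks and 21.3% for peaks elsewhere. The terminal mean was thus not above that elsewhere, a comparison that was not tested, and the preceding mean was the lowest. For strong peaks the share elsewhere is not given. Their difference therefore cannot show whether the end was high or the preceding stretch low. The density of strong peaks in the whole terminal megabase did not pass the test against that before it, with a mean log2 ratio of 0.13 over the libraries (exact sign-flip p = 0.625). That mean joins 2 batches that did not overlap: the ratio was -0.22, -0.58 and -0.46 in batch 1 and 1.15, 0.58, 0.32 and 0.13 in batch 2. The batch difference of -0.96 did not pass the exact two-sided permutation test (p = 0.0571).

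Within the terminal megabase, the last 100 kb held the densest bin in batch 2. By construction it includes the 19 peaks that set the ends, 8 from batch 1 libraries and 11 from batch 2. The last 100 kb of the 19 autosomes held 83, 75, 133 and 133 peaks in Q111/+ replicates 1 to 4 and 341, 245 and 171 in WT replicates 1 to 3. The other 900 kb held 797, 637, 732 and 696 in Q111/+ and 3298, 1612 and 860 in WT. Per base the last 100 kb was 1.64-fold and 1.72-fold denser in Q111/+ replicates 3 and 4, and 1.37-fold and 1.79-fold denser in WT replicates 2 and 3. In batch 1 it was 0.937, 1.06 and 0.931 times as dense. Of the 60 bins of 100 kb in the last 6 Mb, the last one ranked first in each batch 2 library and 50, 30 and 59 in the batch 1 libraries.

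The batches did not overlap in this measure. The log2 ratio of the last 100 kb to the other 900 kb was -0.04 ± 0.105 (SD, n = 3) in batch 1 and 0.70 ± 0.171 (SD, n = 4) in batch 2, with an exact two-sided permutation p of 0.0286, the smallest possible (adjusted 0.2 over 7 tests). Permuted within genotypes the batch difference was -0.75 (exact permutation p = 0.0556). Without the peaks that set the ends the means were -0.05 ± 0.117 and 0.67 ± 0.179 (exact permutation p = 0.0286). The genotype difference was -0.03 (exact permutation p = 0.943). Over the 7 libraries the mean was 0.38 ± 0.415 (SD), with an exact sign-flip p of 0.109 (adjusted 0.188). With list length matched it was 0.54 (exact sign-flip p = 0.0313). On chromosomes 17 and 19 the last 100 kb was denser than the other 900 kb in each of the 7 libraries. It was denser in each of the 4 batch 2 libraries on 6 chromosomes, and in each of the 3 batch 1 libraries on 5.

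**Figure D2:**
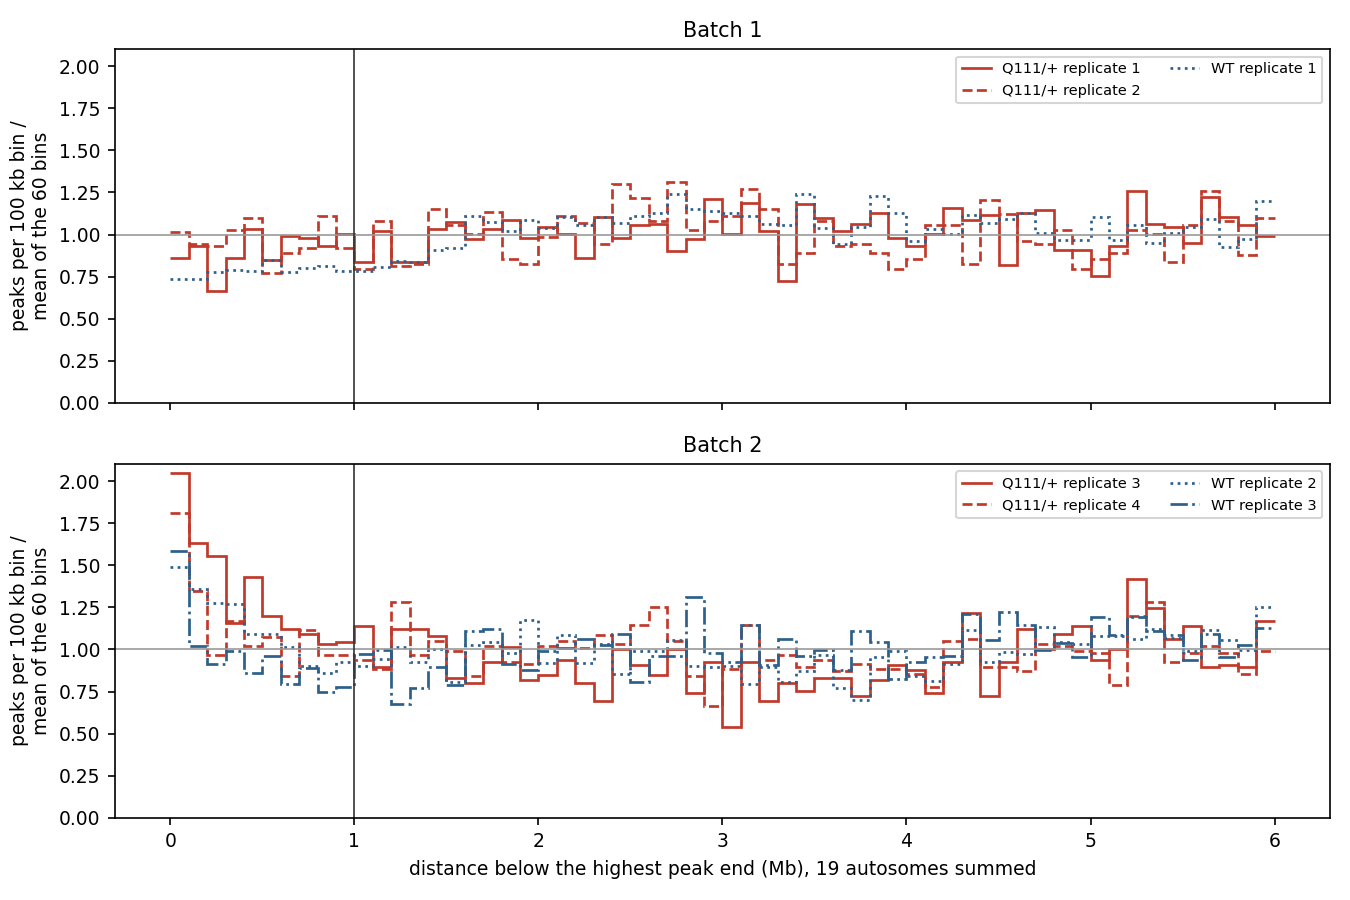
Peaks in each 100 kb bin, summed over the 19 autosomes and divided by the library's mean over 60 bins, against the distance in Mb from the highest peak end; the vertical line marks the inner edge of the terminal megabase. The last bin stands at 2.05, 1.81, 1.49 and 1.58 times the mean in the batch 2 libraries (lower panel) and at 0.858, 1.01 and 0.735 in batch 1 (upper panel).

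Among strong peaks the last 100 kb was denser in both batches and both genotypes. It held 16, 10, 19 and 17 strong peaks in Q111/+ and 36, 21 and 37 in WT, against 52, 28, 32 and 23 in Q111/+ and 186, 63 and 99 in WT over the other 900 kb. Per base that was 2.77-fold, 3.21-fold, 5.34-fold and 6.65-fold in Q111/+ and 1.74-fold, 3.00-fold and 3.36-fold in WT. The lowest ratio was that of WT replicate 1, whose list is the longest. The mean log2 ratio was 1.78 ± 0.635 (SD, n = 7), above 0 in 7 of 7 libraries (exact two-sided sign-flip p = 0.0156, the smallest possible, adjusted 0.0938 over 12 tests), and 1.74 without the peaks that set the ends.

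Part of this density came from the ends of chromosomes 2 and 19, and part from peaks with a high local background. These 2 sets of peaks may overlap but are not the same. Chromosome 2 gave 5, 4, 5 and 6 of the strong peaks of the last 100 kb in Q111/+ and 7, 7 and 9 in WT. Chromosome 19 gave 2, 2, 3 and 7 in Q111/+ and 2, 3 and 7 in WT. Without chromosome 2 the mean log2 ratio was 1.34, and without both it was 0.91, each above 0 in all 7 libraries (exact sign-flip p = 0.0156). Strong peaks whose local background was over 2 times the median of their list numbered 7, 6, 10, 11, 13, 10 and 15 in the last 100 kb, in the order Q111/+ replicates 1 to 4 and WT replicates 1 to 3. In the other 900 kb they numbered 2, 1, 5, 2, 5, 5 and 4. Peaks left out for want of a fragment p are in neither count. With those peaks left out the log2 ratio was 0.70, 0.42, 1.58 and 1.36 in Q111/+ and 0.19, 0.77 and 1.06 in WT, a mean of 0.87 (exact sign-flip p = 0.0156).

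For the genotypes, the strong-peak log2 ratio was 2.08 ± 0.597 (SD, n = 4) in Q111/+ and 1.38 ± 0.507 (SD, n = 3) in WT. The groups overlapped, and the difference of 0.70 did not pass the exact two-sided permutation test (p = 0.257, adjusted 0.36). Permuted within batches it was 0.84 (exact permutation p = 0.0556, the smallest possible there).

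The chromosome ends differed among themselves. None passed the test, but the smallest possible sign-flip p is 0.0156. After adjustment over 19, a single chromosome at that value stays above 0.05, so the test could not call one alone. The median over libraries of the log2 ratio of terminal to preceding density (with 0.5 added to both) ran from -0.57 on chromosome 8 to 0.40 on chromosome 11. Of the 19 chromosomes, 0 (0%) were called at an adjusted p under 0.05 by the exact sign-flip test, and 3 had an unadjusted p below that, 2 of them denser at the end and 1 sparser. The lowest adjusted p was 0.198. The end was denser in all 7 libraries on 0 chromosomes, sparser in all 7 on 1, and mixed on 18.

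Chromosome 11 had the highest median. Its last megabase held 77, 56, 31 and 36 peaks in Q111/+ and 306, 101 and 64 in WT, against 58.2, 45.8, 7.0 and 15.6 per Mb before it in Q111/+ and 352, 44.0 and 53.8 in WT. Each library except WT replicate 1 was denser at the end, and Q111/+ replicate 3 had the largest ratio, 2.07 on the log2 scale. The mean was 0.74 ± 0.776 (SD, n = 7; exact sign-flip p = 0.0313, adjusted 0.198). Among strong peaks the median was -0.12.

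Chromosome 2 came next, with a median of 0.39. Its last megabase held 81, 61, 30 and 38 peaks in Q111/+ and 285, 69 and 60 in WT, against 39.0, 30.0, 22.8 and 27.0 per Mb before it in Q111/+ and 231, 69.6 and 49.8 in WT. All but WT replicate 2 were denser at the end, with a mean of 0.50 ± 0.393 (SD, n = 7; exact sign-flip p = 0.0313, adjusted 0.198). The median fell to -0.09 with the last 100 kb left out and was 1.58 among strong peaks. Chromosomes 5 and 17 followed, with medians of 0.30 and 0.23, and both changed sign with the window or peaks used. On chromosome 5 the median was -0.80 among strong peaks, -0.38 for the last 2 Mb and -0.16 for the last 0.5 Mb. On chromosome 17 it was -0.21 for the last 2 Mb and -0.29 against the whole autosome.

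At the other extreme, chromosome 12 was sparser at its end in all 7 libraries. It held 25, 21, 60 and 57 terminal peaks in Q111/+ and 102, 129 and 47 in WT, against 39.4, 25.6, 65.8 and 60.4 per Mb in Q111/+ and 179, 158 and 71.8 in WT before it. The mean log2 ratio was -0.41 ± 0.280 (SD, n = 7; exact sign-flip p = 0.0156, the smallest possible, adjusted 0.198). Chromosomes 3 and 14 had medians of -0.34 and -0.49. Chromosome 8 had the lowest median, yet its libraries were split: the log2 ratio was -0.74, -1.14, 1.28 and 0.90 in Q111/+ and -1.10, 1.13 and -0.57 in WT.

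On some chromosomes the batches or the genotypes did not overlap. The log2 ratios of the batches did not overlap on 5 of 19 chromosomes (26.3%), which were 6, 8, 10, 13 and 16, with batch 2 higher on each. The lowest adjusted p of the exact permutation test between batches was 0.181. The genotypes did not overlap on 3 of 19 (15.8%), which were 2, 4 and 15, with Q111/+ higher on each, and the lowest adjusted p of that permutation test was 0.407. With a smallest possible p of 0.0286, neither permutation test could call a single chromosome after adjustment over 19. Those chromosomes were named after their values were seen.

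**Figure D3:**
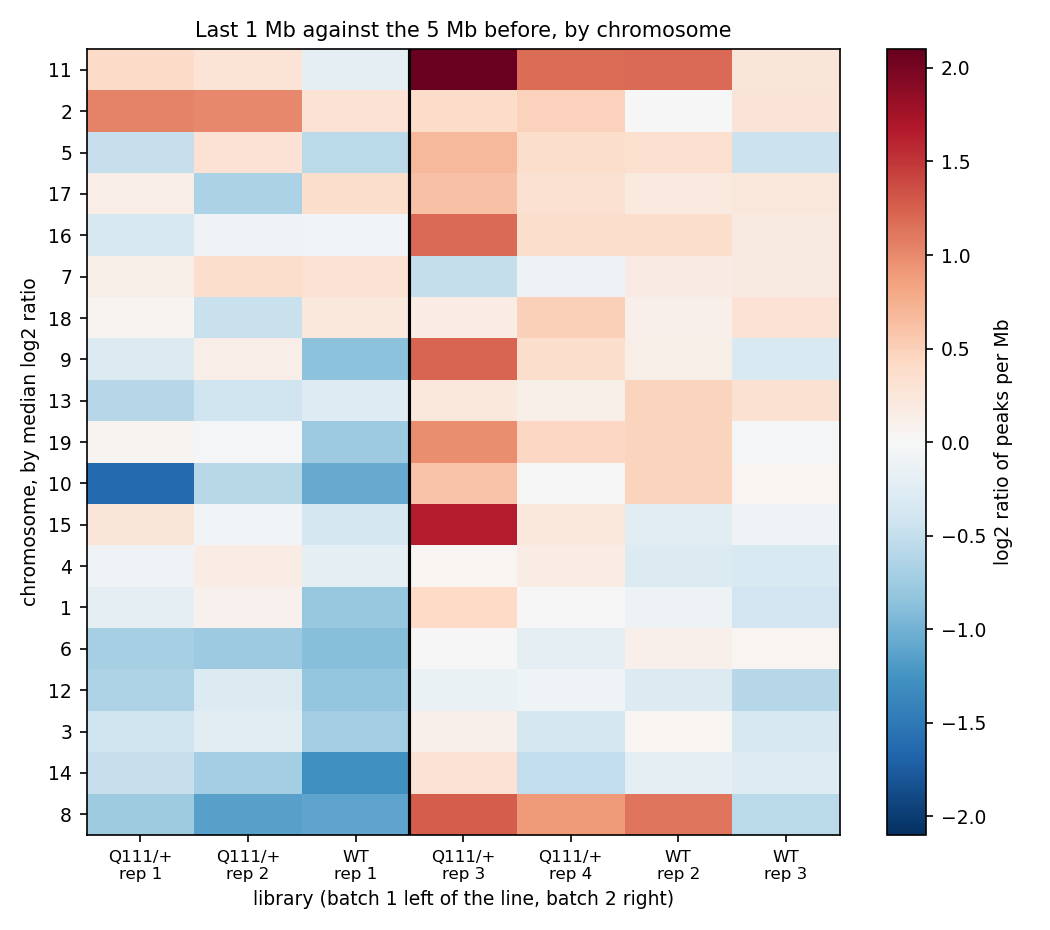
The log2 ratio of peaks per Mb in the last 1 Mb over the 5 Mb before, for each of 19 chromosomes (ordered by the median over libraries) and each library, with batch 1 left of the line and batch 2 right of it. Red is denser at the end and blue is sparser. Chromosome 12 is below 0 in all 7 libraries, and chromosome 8 changes sign within batch 2 (-0.57 in WT replicate 3 against 1.28 in Q111/+ replicate 3).

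Window by window, the terminal megabases showed few genotype differences. In lists of equal length the peak numbers of the genotypes did not overlap in 1 of 19 terminal windows, against 82 of 2416 autosomal windows of 1 Mb (3.39%, of which 2.32% were higher in Q111/+ and 1.08% higher in WT). The window was that of chromosome 19, named after its values were seen, with 47, 46, 52 and 54 peaks in Q111/+ and 26, 41 and 43 in WT. Its exact two-sided permutation p was 0.0286, the smallest possible, and 1 after adjustment over all 2416 windows, of which 44 had an unadjusted p below 0.05. No single window could pass that adjustment. The count of 1 became 3 without Q111/+ replicate 4 or WT replicate 1, and 2 without WT replicate 2 or 3. With fewer libraries, lack of overlap is easier to reach in any window. The share of all windows is not given for these settings, so the counts cannot be set against 3.39%. In full lists 6 of 19 terminal windows were higher in every WT library (31.6%), beside 36.1% of all windows. Among strong peaks it was 7 of 19 (36.8%), beside 26.7% of all windows.

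Most terminal peaks were seen in 1 library, as over all autosomes. Overlapping peaks of the 7 lists merged into 8191 terminal regions. A single library called 85.2% of them, near the 85.0% of all autosomal regions and the 86.0% of the preceding 5 Mb. At the ends 0.879% were called by 4 or more libraries, against 0.840% over all autosomes and 0.656% in the preceding 5 Mb. Regions called in all 7 libraries numbered 11, or 0.134% of terminal regions, against 0.094% over the autosomes. Per Mb that is 0.579 at the ends, 0.337 in the preceding 5 Mb and 0.412 over all autosomes. In lists of equal length 9 of 4180 terminal regions were called in all 7 (0.215%, against 0.142% over the autosomes), and with strong peaks alone 3 of 534 (0.562%, against 0.231%). Those 3, and 4 of the 11, lay in 1 cluster on chromosome 2. The shares at the ends therefore rest on few places and are not shown to be a trait of the ends in general. Neighbouring regions were counted singly here and over the autosomes.

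The 11 shared regions lay on 7 chromosomes, most of them within 200 kb of an end. Of them, 6 were within 100 kb of the highest peak end, 4 of these in 1 cluster on chromosome 2, and 8 were within 200 kb. Among all terminal peaks, the last 100 kb held a mean of 169 of 1402 a library. The median width of the 11 regions was 826 bp. They fall into 2 kinds by local background, a description made after their values were seen. The first 6 stood on a background of 8.53 to 41.5 times their list's median, with 39.8 to 174 fragments at the summit and a -log10 p of 27.8 to 264. The other 5 stood on 0.904 to 2.56 times the median, with 3.65 to 22.2 fragments.

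A cluster of 4 of the first kind lay within 15234 bp on chromosome 2. They were chr2:181651233-181652768, chr2:181653292-181653801, chr2:181662822-181664029 and chr2:181664974-181666466 (mm9), at 89.1, 87.0, 77.5 and 75.4 kb from the highest peak end. A further region of this kind, chr19:61339572-61340392, was the closest to an end, at 2.17 kb. The last, chr9:123370922-123371285, lay 704 kb inside. Whether genes lie at these positions was not analysed here, since no mm9 annotation was used.

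At 4 of the 6 the authors' fold was higher in each WT library than in each Q111/+ library. At chr2:181651233-181652768 the fold was 2.45, 2.09, 2.69 and 2.36 in Q111/+ (mean 2.40 ± 0.248, SD, n = 4) and 3.52, 4.98 and 4.76 in WT (4.42 ± 0.786, SD, n = 3). At chr19:61339572-61340392 it was 2.33, 2.80, 2.05 and 2.72 in Q111/+ (2.48 ± 0.350, SD, n = 4) and 3.53, 3.80 and 3.59 in WT (3.64 ± 0.142, SD, n = 3). At chr2:181653292-181653801 the means were 2.91 ± 0.661 in Q111/+ and 4.60 ± 0.863 in WT, and at chr9:123370922-123371285 they were 2.50 ± 0.287 and 3.40 ± 0.368. Over all 6 regions of this kind and all libraries the fold ran from 2.05 to 5.59.

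The same pattern was common elsewhere. Of the 994 autosomal regions shared by the 7 libraries, 276 (27.8%) had a higher fold in every WT library, beside 4 of 11 at the ends. The opposite order was seen at 0 of 11 terminal regions (0%) and 0.302% of the 994. Folds belong to separately called lists, whose background the caller set, so they describe each peak within its list, and no test was made of them. The other 2 regions of the first kind overlapped between genotypes. At chr2:181664974-181666466 the means were 2.68 ± 0.387 in Q111/+ and 2.94 ± 0.274 in WT, and at chr2:181662822-181664029 they were 3.16 ± 0.354 and 3.09 ± 0.875.

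The other 5 regions stood on a lower background and held fewer fragments. They were chr10:129921374-129922062 (71.0 kb from the end), chr12:120792409-120793662 (460 kb), chr10:129553980-129554620 (438 kb), chr14:125053706-125054531 (136 kb) and chr18:90639490-90640542 (124 kb, the last of the 11 in rank). The chromosome 12 region passed the limit for strong peaks in 6 of 7 libraries and the chromosome 10 region at 438 kb in 5, while the other 3 passed it in 2. At the chromosome 12 region the fold was 2.68, 4.04, 4.54 and 4.14 in Q111/+ and 4.03, 4.60 and 7.18 in WT, on 6.9 to 22.2 fragments. At the chromosome 18 region WT replicate 1 stood apart with a fold of 9.31, against 2.73 to 4.90 in the other libraries. The chromosome 2 regions at 75.4, 87.0 and 89.1 kb counted as strong in all 7 libraries. The remaining regions of the first kind counted in 5 or 6. In the libraries they missed, their peaks held over 60 fragments, beyond the range searched. Those peaks got no fragment p, so the limit was not tested on them.

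**Figure D4:**
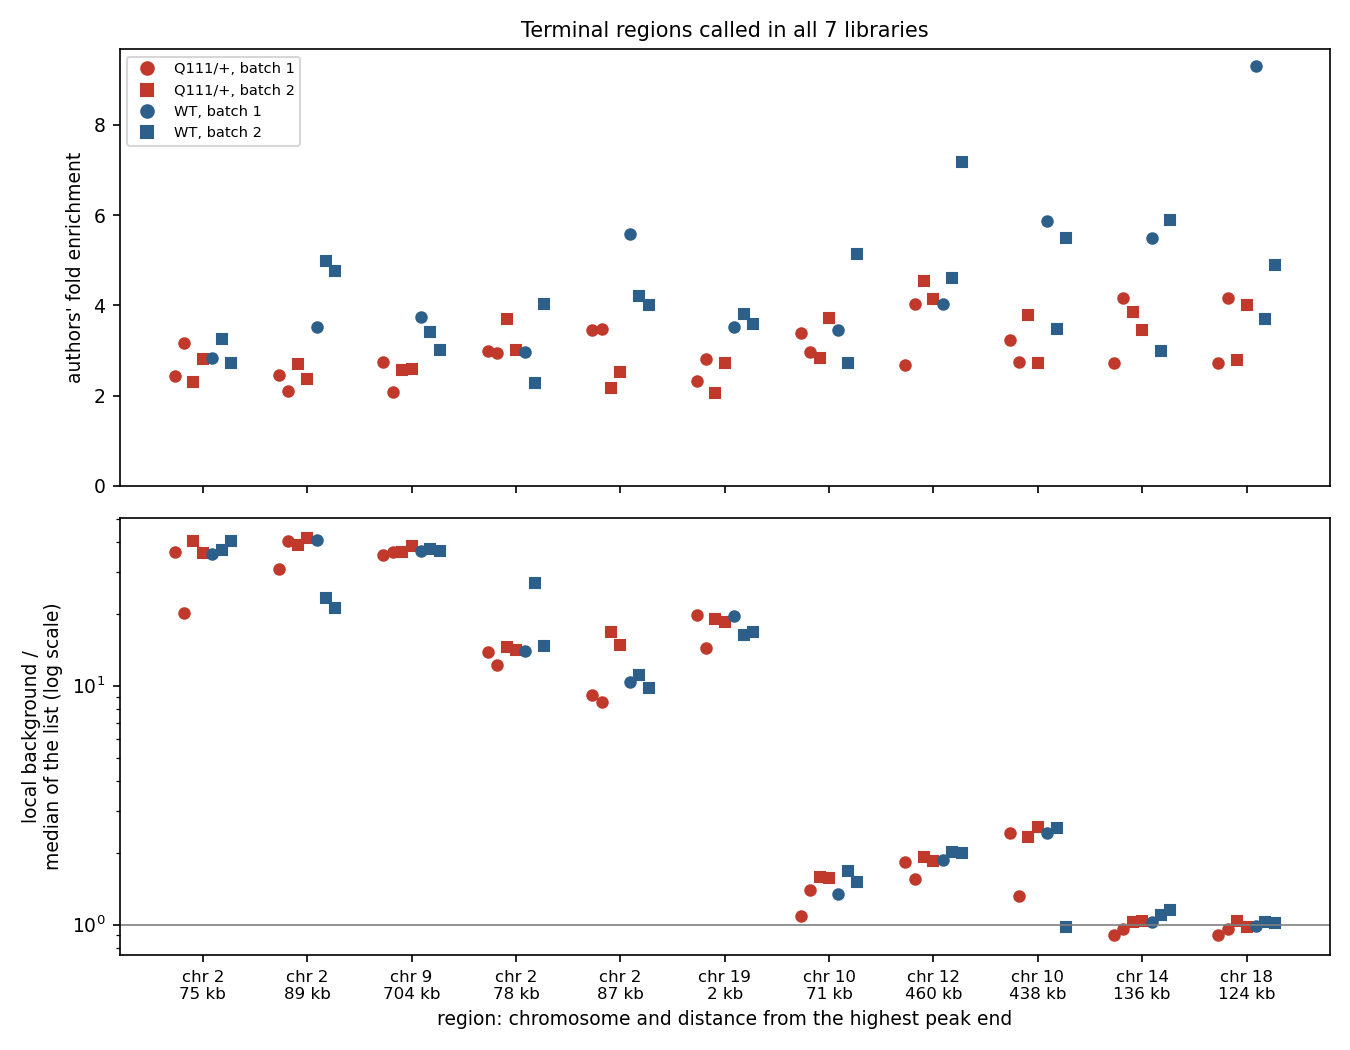
The 11 terminal regions called in all 7 libraries, each with its chromosome and its distance from the highest peak end. Each point is 1 library, with the authors' fold enrichment above (linear axis from 0) and the local background divided by the list's median below (log axis); the first 6 regions stand at 8.53 to 41.5 times the median and the other 5 at 0.904 to 2.56 times.

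Of regions called in every library of 1 genotype alone, the ends held about the share found over all autosomes. All 3 WT libraries and no Q111/+ library called 31 terminal regions, or 0.378% of the 8191, beside 0.317% over all autosomes and 0.257% in the preceding 5 Mb. All 4 Q111/+ libraries and no WT library called 0, beside 20 over all autosomes (0.00189%). WT lists are longer, and in lists of equal length the WT count at the ends was 4 of 4180 (0.0957%, beside 0.0763% over all autosomes) and the Q111/+ count was 0 (beside 0.00966%). Leaving out a library loosens this rule, so a higher count cannot be read as a trait of that library. Without WT replicate 1, 2 or 3 the WT count was 98, 166 or 227. Without Q111/+ replicate 1 or 4 the Q111/+ count was 3 or 2, and without WT replicate 2 or 3 it was 1. The shares over all autosomes under these looser rules are not given, so these counts cannot be judged against a background. The 31 regions lay on 17 chromosomes, 21 of them within 500 kb of the highest peak end, and had a median width of 433 bp.

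The 5 WT regions highest in rank rested on few fragments. At chr12:120758188-120759112 the fold was 5.48, 4.42 and 4.31 in WT replicates 1 to 3. At chr14:124191820-124192953, which lies at the inner edge of the window, it was 7.78, 3.80 and 4.31. At chr10:129482010-129482528 it was 5.48, 5.14 and 3.71. The last 2 were chr18:90573736-90574177, at 3.95, 5.14 and 5.50, and chr9:123690164-123690443, at 3.95, 3.71 and 4.32. Each of the 5 passed the unscaled fragment limit in at most 2 of the 3 WT libraries, and with that limit the count of 31 became 0, beside 0.454% of autosomal regions, and that of all Q111/+ and no WT libraries was 0, beside 0.00811%.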

How the data were processed

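HTT ChIP-seq of striatum was analysed from the peak lists the authors deposited, 1 per library (4 Q111/+, 3 WT). The submitters' processing notes list Bowtie2 2.2.5 and MACS2 2.1, and mm9 as the mouse build, without roles or order. The deposited list names show paired reads and a p of 0.001. The sources used here do not say if the caller was given input as its control. The authors' fold column is a ratio to local background. The deposited −log10 p-value and −log10 q-value columns give each peak's significance. The deposited score is a whole number made from −log10 p, and was not used. The deposited summit offset served only in the alternative that placed peaks by their summit. Depth is unknown, so no counting interval is given.

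Coordinates are 1-based in mm9. Windows were set by the highest peak end, and a peak belongs to the window its start lies in. Density is peaks per Mb. Lists of equal length held the 88920 peaks of highest −log10 p (ties by fold, then at random, seed 11). Regions are peaks of any list overlapping by at least 1 bp. Fragments at the summit were solved from the authors' fold and −log10 p, with a scale found for each library (up to 60 fragments, tolerance 0.02 in −log10 p). At least 99.9% of peaks up to a −log10 p of 60 matched; beyond that, and for the regions called in all 7 libraries, fragments are not forced to whole numbers. The sequence and gene models of mm9 were not used here.

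Within-library differences were tested by exact two-sided sign flips (smallest p 0.0156), and groups by exact two-sided permutation of 7 libraries (35 splits, smallest p 0.0286), with Benjamini-Hochberg adjustment over 12 and 7 tests, over 19 chromosomes, or over 2416 windows. The scripts were tested on simulated data. Named were the 4 chromosomes of highest and the 4 of lowest median ratio, the 10 regions called in all 7 lists with the highest lowest percentile of −log10 p (the remaining 1 is given too), and up to 5 regions called in 1 genotype. The members and lists were chosen with earlier results of these data known. The last 100 kb, its strong peaks and the shared shares were added after seeing the data. Other windows, list lengths, significance limits and blocks were tried, and each library was left out in turn. The software was Python 3.11.15 with matplotlib 3.10.9, scipy 1.17.1, pandas 2.3.3 and numpy 2.4.6.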

Additional observations from a re-analysis of the deposited data

Results flagged for a closer look

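On 3 chromosomes every batch 1 library was sparser at the end than in the 5 Mb before it, while every batch 2 library was denser. The mean log2 ratio differed between batches by -1.37 on chromosome 10, by -0.71 on chromosome 13 and by -0.69 on chromosome 16 (batch 1 minus batch 2). On chromosome 10 the log2 ratios were -1.63, -0.58 and -1.06 in batch 1 (Q111/+ replicates 1 and 2 and WT replicate 1) and 0.60, 0.01, 0.47 and 0.05 in batch 2 (Q111/+ replicates 3 and 4 and WT replicates 2 and 3). The exact two-sided permutation p was 0.0286, 0.0286 and 0.0571 for the 3 chromosomes, and 0.181, 0.181 and 0.217 after adjustment over 19, so none passed. A single chromosome cannot pass there, since 0.0286 is the smallest possible p. In the Q111/+ group, whose 4 libraries allow such a check, 10 measures were searched for a single library far from the others, and 0 were found.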

How the results depend on the processing

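The terminal to preceding log2 ratio (0.03) was -0.059 for the last 2 Mb (exact sign-flip p = 0.453), -0.018 with the last 100 kb left out (0.875) and -0.050 to 0.10 with 1 library left out, lowest without Q111/+ replicate 3 (0.625), so it changed sign without passing the test. Its genotype difference (0.22) kept its direction under all 22 alternatives, from 0.06 to 0.37, and passed the test in none. With 1 library left out, or with batch or replicate number as a block, it could not have passed. The genotype difference in log2 terminal peaks (-1.22) was 0.11 in lists of equal length (exact permutation p = 0.0571), 0.12 when these were ranked by fold (0.0286) and -1.18 with a −log10 q of at least 2 (0.0571). It was -1.45 with batch as a block (exact permutation p = 0.0556) and -1.67 to -0.76 with 1 library left out (0.0667 to 0.1). With the replicate number as a block it was -1.23 (exact p = 0.25, the smallest that 3 pairs allow). The p-values with batch as a block and with 1 library left out are likewise the smallest possible. Those alternatives could therefore not pass, whatever the values. Log2 peak numbers in 1 Mb windows, in lists of equal length, were taken as deviations from their group means. Those of same-numbered libraries correlated at 0.826, -0.752 and 0.615. Over all pairs of a Q111/+ and a WT library the correlation was positive within a batch and negative between batches. The numbers were therefore not taken to pair the samples.

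The batch difference in density ratio (-0.43) was -0.47 in lists of equal length (exact permutation p = 0.0286) 0.0026 against the whole autosome (p = 1, exact permutation) and -0.96 among strong peaks (exact permutation p = 0.0571). The difference in median fold (0.01) was -0.028 in lists of equal length, -0.00039 for the last 2 Mb and -0.020 against the whole autosome. The difference in median −log10 p (0.03) was -0.013 in lists of equal length, and that in width was 1.29 bp for the last 0.5 Mb.

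Regions called in all 7 libraries (11) numbered 3 with ranking by fold and 3 with the fragment limit. Regions of all WT and no Q111/+ libraries (31) numbered 4 in lists of equal length, 4 with absence judged in full lists, 5 with ranking by fold, 0 with the fragment limit, and 32 to 227 with 1 library left out. Those of all Q111/+ and no WT libraries (0) numbered 0 to 3 with 1 library left out. Leaving out a library loosens these rules, and the shares over all autosomes are not given there. Terminal windows without overlap of the genotypes (1) numbered 2 with ranking by fold, 7 with the fragment limit, 6 in full lists and 1 to 3 with 1 library left out. The share of all windows is not given for ranking by fold or with 1 library left out. Judging absence in full lists gives no value of its own for regions called in all 7.

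The log2 density ratio of the last 100 kb (0.38) was 0.54 in lists of equal length (exact sign-flip p = 0.0313), 0.43 with ranking by fold (0.0469) and 1.78 among strong peaks (0.0156). For strong peaks it kept its direction under all 15 alternatives, from 0.74 to 2.75, with an unadjusted exact sign-flip p of 0.0156 to 0.0313. Its main value, added after seeing the data, had an adjusted sign-flip p of 0.0938 over 12 tests and so missed the threshold. The shared share (1.79 points) was -0.21 with a −log10 q of at least 2, -0.40 in full lists, 9.25 with the fragment limit (exact sign-flip p = 0.0156) and 0.751 to 2.37 with 1 library left out. The cause of these changes was not tested. Results that keep 4 and 3 libraries cannot reach a permutation p under 0.0286, and with fewer libraries the smallest possible p is higher.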

Other observations

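Gene names were not tied to peaks, but the order of protein-coding genes in the RefSeq table of another build, GRCm38, gives the last named ones on each chromosome. On chromosome 2 the last 3 are Myt1, a zinc finger transcription factor of oligodendrocyte and neural precursors, Pcmtd2 and Polr3k, a subunit of RNA polymerase III. On chromosome 11 they are B3gntl1, Metrnl and Ptchd3. On chromosome 12, the chromosome sparser at its end in all 7 libraries, they are Itgb8, an integrin subunit, Macc1 and Tmem196. No peak is assigned to any of these genes.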
